A study of Mus musculus with 9 samples.

Results

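The 9 genes described here encode proteins that make, break down, bind and sense retinoic acid. They are the retinaldehyde dehydrogenases Aldh1a1, Aldh1a2 and Aldh1a3, the retinoic acid hydroxylases Cyp26a1 and Cyp26b1, the cellular binding proteins Crabp1 and Crabp2, and the nuclear receptors Rarb and Rarg. They were chosen by name and not by a cut on their values, though earlier results of these data were known. They come from the 43548 gene identifiers of an RNAseq data set of the embryonic mouse skull, in which each had 1 row. All 9 were among the 18714 genes tested.

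Retinoic acid is made from vitamin A in 2 steps: retinol is oxidized to retinal by alcohol and retinol dehydrogenases, and retinal is oxidized to retinoic acid by the Aldh1a enzymes. Cyp26 enzymes hydroxylate retinoic acid and so limit where it acts, and Crabp proteins carry it in the cytoplasm. In the nucleus, retinoic acid receptors pair with retinoid X receptors on DNA elements built of repeated hexamers, and Rarb and Cyp26a1 are known direct targets. In the head, the meninges are a known source of retinoic acid, and both excess and lack of it are known to disturb the growth of the skull bones.

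The tissue came from E14.5 mouse embryos of mixed strain. MCAGF8 embryos carry the Msx2-Cre transgene, which acts in the surface ectoderm, and the CAGF8 allele in the ROSA26 locus. In that allele Cre removes a stop cassette, so that the strong CAG promoter drives Fgf8b. The controls are labelled wildtype, and the study describes them as lacking Cre. In its breeding scheme, Cre mice were crossed to mice homozygous for the Fgf8b allele, so that every embryo inherits it. By that scheme the controls carry the CAGF8 allele too, with the stop cassette still in place. Skin was peeled off before the cranial vault tissue was taken from MCAGF8 and control embryos, and cartilage of the cranial base was taken from control embryos as a reference for hyaline cartilage. Each group held 9 tissue samples that were pooled into 3 libraries of 3, and every p-value below measures the spread between pools. Values are FPKM (fragments per length of transcript and per number of mapped fragments), which can be compared between genes because they are per length. The read depth behind them is unknown, so precision is described by the spread of the pools alone. In pools of bulk tissue, fewer cells of a type and less RNA per cell cannot be told apart.

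The promoter sequences of Cyp26a1 and Rarb are shown because they are the members in which the classical response element was found, so that their levels can be read beside those of the enzymes that make the ligand. RefSeq windows from 250 bases before to 50 bases after a transcription start were at hand for 7 of the 9 members (9 windows on GRCm38.p6). The motif searched was a direct repeat of 2 hexamers with 5 bases between them, on both strands, where a hexamer could be AGGTCA or the variant AGTTCA, or else GGGTCA or its variant GGTTCA. It was found in Cyp26a1 and Rarb, while 31 of 27025 genes (0.115%) held it, in 32 of 32851 windows (0.0974%). Both members are the known direct targets named above, so the share is given as background and not as a test of enrichment. Spacings of 1 and 2 bases were found in 0 members, against 0.222% and 0.268% of all windows. In the lines below the hexamers are in capitals, and each line reads 5′ to 3′ on the strand of the gene.
Cyp26a1, chr19:37697558-37697797, plus strand: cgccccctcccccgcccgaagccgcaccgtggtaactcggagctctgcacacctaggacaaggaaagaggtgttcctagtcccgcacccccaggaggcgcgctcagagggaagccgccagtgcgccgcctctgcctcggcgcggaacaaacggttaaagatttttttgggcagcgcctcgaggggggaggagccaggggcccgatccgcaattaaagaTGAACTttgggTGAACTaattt
Rarb, chr14:16575508-16575534, minus strand: ggaagGGTTCAccgaaAGTTCActcgc
The Cyp26a1 line holds 240 bases upstream of the annotated first exon, and its element, read on the opposite strand, lies at bases -32 to -16 before the RefSeq start. The Rarb line holds the element with 5 bases on either side. That element lies at -53 to -37 before the RefSeq start, inside the Rarb gene, and GENCODE M21 annotates transcripts whose first exon begins farther upstream, so that the element falls in their untranslated part. A match of letters is a description and not evidence of binding.

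The libraries of the control cranial base did not resemble each other as closely as those of the other groups did. Pearson's r across genes (log2 scale) ran from 0.904 to 0.946 for pairs of base libraries, from 0.970 to 0.974 for the control vault and from 0.959 to 0.980 for the MCAGF8 vault. The summed FPKM of 8 chondrocyte markers (Col2a1, Acan and others) was 742, 7188 and 922 in base replicates 1, 2 and 3, so only replicate 2 was above the control vault (1246 to 1855). Base replicate 2 also held inner ear markers, with a sum of 809 FPKM over 6 genes against 9.08 and 10.8 in replicates 1 and 3. Differences from the base that passed the test are therefore given with and without replicate 2. The fit pools its error over all 9 libraries, so the intervals and p-values between the vaults also draw on the spread of the base. The vaults differed in other cell types: osteoblast markers (8 genes) summed to 1348 to 3282 FPKM in the control vault and 140.0 to 284 in the MCAGF8 vault, skeletal muscle markers (10 genes) to 1067 to 6599 and 24.1 to 277, and surface epidermis markers (12 genes) to 55.7 to 106 and 416 to 749. No marker of these 5 lists was at 0 in every library of a group. Fgf8 itself was at 13.5, 8.25 and 3.01 FPKM in the control vault and 19.5, 9.43 and 13.0 in the MCAGF8 vault, which overlapped.

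In the control cranial vault the members spanned levels over more than 2 orders of magnitude. Crabp1 had the highest mean at 403 ± 146 FPKM (SD, n = 3), followed by Crabp2, Rarg, Aldh1a2, Rarb, Aldh1a3, Cyp26b1, Cyp26a1 and Aldh1a1, which was at 2.02 ± 0.825. Neighbours in this order whose 3 values overlapped were Crabp1 and Crabp2, Aldh1a2 and Rarb, Aldh1a3 and Cyp26b1, and Cyp26a1 and Aldh1a1. In the MCAGF8 vault the order was Crabp1, Crabp2, Rarg, Rarb, Cyp26b1, Aldh1a2, Aldh1a3, Cyp26a1 and Aldh1a1, so Cyp26b1 stood above Aldh1a2 and Aldh1a3, although its values overlapped those of Aldh1a2. The neighbours that did not overlap there were Crabp1 and Crabp2, Rarg and Rarb, and Aldh1a2 and Aldh1a3. In the base the order was Crabp1, Crabp2, Rarg, Aldh1a2, Aldh1a3, Rarb, Aldh1a1, Cyp26b1 and Cyp26a1, and only Rarg and Aldh1a2, and Cyp26b1 and Cyp26a1, were neighbours without overlap.

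**Figure D1:**
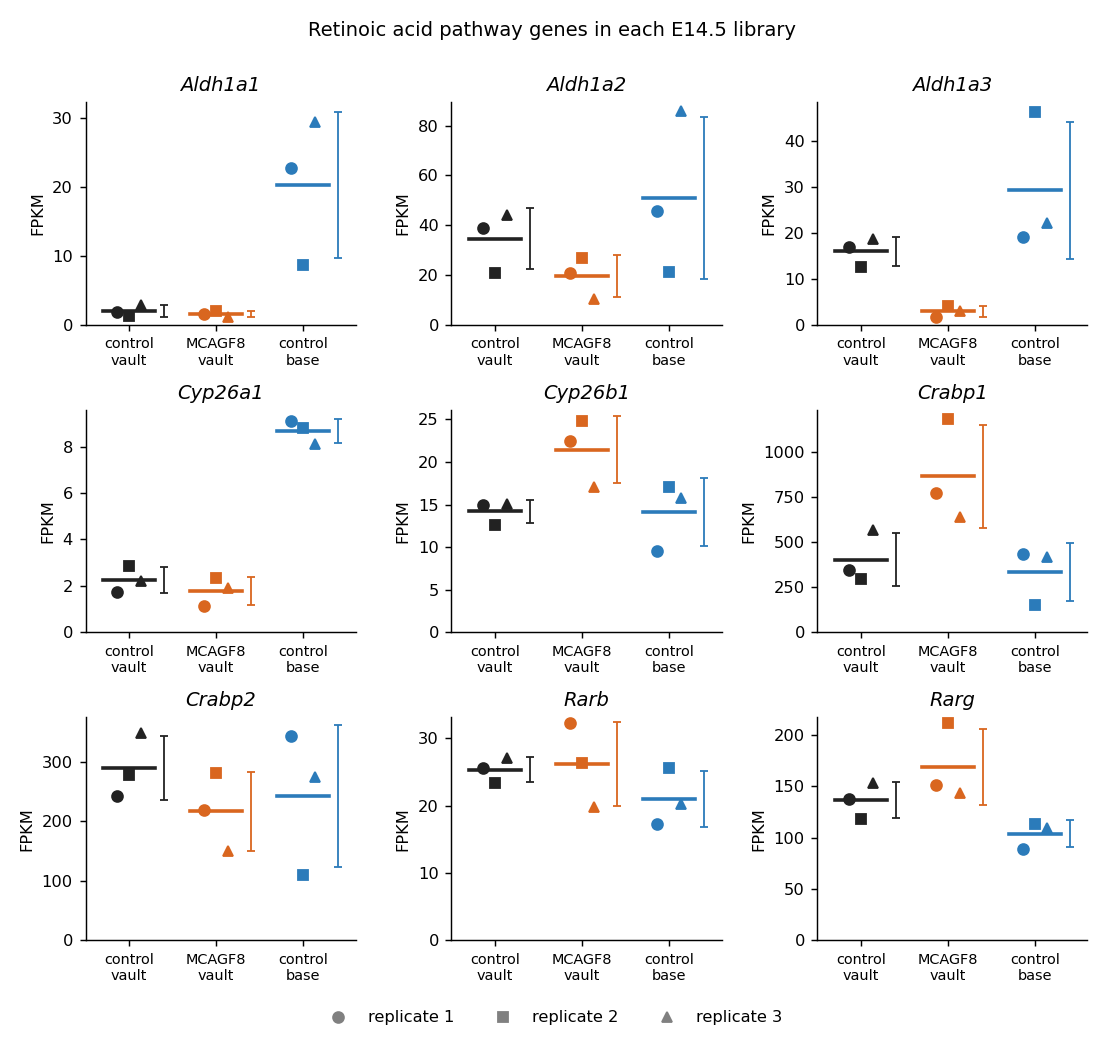
FPKM of the 9 members, 1 panel for each gene on a linear axis from 0, with 1 symbol for each library (replicate 1, 2 or 3, pools of 3 samples), a line at the group mean and a bar of 1 SD (n = 3). Aldh1a3 in the MCAGF8 vault lies between 1.78 and 4.17 FPKM, below each of the other 6 libraries, and Aldh1a1 and Cyp26a1 in the base lie above both vaults.

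Between the vaults, 1 of the 9 members passed the test, Aldh1a3, which fell. To be called, a gene needed an adjusted p (Benjamini-Hochberg, over all genes tested) under 0.1 as well as a raw p under 0.05 in limma's two-sided test on log2(FPKM + 1), and 0.604% of all genes were called in this comparison (0.230% higher and 0.374% lower). The groups did not overlap for 3 members, of which Crabp1 and Cyp26b1 were higher and Aldh1a3 was lower in the MCAGF8 vault, against 19.2% of all genes (9.90% higher and 9.35% lower). The median log2 difference of the members was -0.19, and that of all genes was -0.0088. Against the base, 4 members were called, with Aldh1a1, Aldh1a3 and Cyp26a1 lower and Rarg higher in the MCAGF8 vault, where 8.39% of all genes were called (2.98% higher and 5.41% lower). The members without overlap numbered 6, with 3 in each direction, against 21.9% of all genes (8.91% higher and 13.0% lower), and the medians were -0.057 for the members and -0.066 for all genes. Between the control tissues, Aldh1a1 and Cyp26a1 were called, both higher in the base, where 3.06% of all genes were called (1.85% higher and 1.21% lower). Here 4 members did not overlap, 3 of them higher in the base and 1 lower, against 15.5% of all genes (8.86% higher and 6.69% lower), and the medians were -0.042 and 0.067. With the raw p under 0.05 alone, 2, 7 and 2 members passed in these comparisons, against 6.34%, 19.6% and 12.8% of all genes. The 3 comparisons share libraries and are not independent of each other. Without base replicate 2, the members called were 1, 7 and 2 in the same order, and Aldh1a2, Cyp26b1 and Crabp1 joined those called between the MCAGF8 vault and the base. The share of all genes called rose too, to 1.23%, 24.5% and 7.06%, so the added calls are not read as a result about the members.

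**Figure D2:**
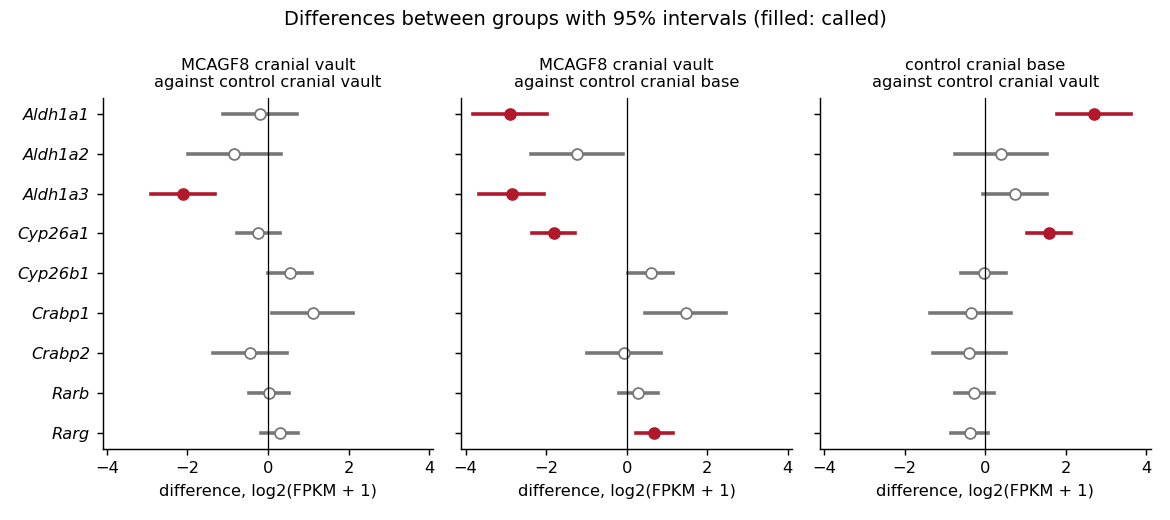
Log2 difference of log2(FPKM + 1) for each member in the 3 comparisons, with 95% intervals from limma and filled points for called members. Aldh1a3 is the 1 member whose point is filled in the comparison of the vaults, at -2.12.

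Among the enzymes of synthesis, Aldh1a3 (ENSMUSG00000015134, chromosome 7 from 66390890 to 66427517, GRCm38), which makes retinoic acid in facial and eye tissue, was 5.34-fold lower in the MCAGF8 vault than in the control vault. The control vault libraries 1, 2 and 3 were at 16.9, 12.5 and 18.6 FPKM, those of the MCAGF8 vault at 1.78, 4.17 and 3.04, and those of the base at 19.2, 46.3 and 22.2. Every MCAGF8 value lay below every control value, vault or base, and base replicate 2 was the highest of all. The log2 difference between the vaults was -2.12 (SE 0.36, limma, adjusted p = 0.0714). Against the base it was -2.86 (SE 0.36, limma, adjusted p = 0.00431), a 9.75-fold difference of the means, and without base replicate 2 it was -2.48 (adjusted p = 0.00260). The base and the control vault did not overlap, but their difference of 0.74 was not called (95% interval -0.056 to 1.54, limma, adjusted p = 0.442).

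The call of Aldh1a3 between the vaults was not held in all settings, while its direction was. Over 21 other settings the log2 difference ran from -2.44 to -1.88 and limma's adjusted p from 0.0210 to 0.337, and the call was lost in 10. It was lost without control vault replicate 1 or 3 (limma, adjusted p = 0.201 and 0.216) and without MCAGF8 replicate 1, 2 or 3 (adjusted p = 0.337, 0.149 and 0.173). The marker sums of osteoblasts and muscle, given above, were also lower in every MCAGF8 vault library than in every control vault library, and those of surface epidermis were higher. The epidermis list did not move as 1, since 8 of its 12 genes were higher without overlap (3 of them called, limma) and 3 had a difference below 0. Krt5, a basal keratin, was at 5.27, 29.2 and 1.63 FPKM in the control vault and 149, 139 and 252 in the MCAGF8 vault. The keratins of simple epithelia, Krt8 and Krt18 (chosen after their values were seen), overlapped between the vaults, with means of 6.96 ± 3.79 and 10.6 ± 6.97 FPKM in the control vault and 2.31 ± 0.598 and 2.72 ± 1.52 in the MCAGF8 vault (SD, n = 3), and their log2 differences of -1.14 and -1.46 were not called (limma, adjusted p = 0.856 and 0.652). How much surface ectoderm was left after peeling was not measured. Neural progenitor markers (8 genes) summed to 93.1 to 177 FPKM in the control vault and 41.9 to 52.5 in the MCAGF8 vault. Their part in the difference of Aldh1a3 was not tested.

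Aldh1a2 (ENSMUSG00000013584, chromosome 9 from 71215789 to 71296243), the main retinoic acid-making enzyme of the early embryo and a gene of the meninges, had the highest level of the 3 Aldh1a genes in both vaults. It was at 39.0, 20.9 and 44.0 FPKM in the control vault, 20.9, 27.0 and 10.3 in the MCAGF8 vault and 45.6, 21.2 and 85.8 in the base. The 3 groups overlapped, and base replicate 2 was close to the lowest control vault library while base replicate 3 was the highest of all. The difference between the vaults was -0.83 on the log2 scale and was not called (95% interval -1.98 to 0.31, limma, adjusted p = 0.969). The MCAGF8 vault differed from the base by -1.23 (95% interval -2.38 to -0.084, limma, adjusted p = 0.223), which was called without base replicate 2, at -1.74 (adjusted p = 0.0370). The base differed from the control vault by 0.40 (95% interval -0.75 to 1.54, limma, adjusted p = 0.897). The markers of the meninges (10 genes) summed to 1504 to 1886 FPKM in the control vault, 1579 to 2891 in the MCAGF8 vault and 785 to 1278 in the base.

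Aldh1a1 (ENSMUSG00000053279, chromosome 19 from 20492715 to 20643465), which oxidizes retinal in eye and other tissues, marked the base among the control tissues. Its levels were 22.7, 8.65 and 29.5 FPKM in the base, 1.92, 1.25 and 2.89 in the control vault and 1.60, 2.04 and 1.16 in the MCAGF8 vault. Every base library was above every vault library, with base replicate 2 the lowest of the 3, and the vaults overlapped. The mean was 10.0-fold higher in the base than in the control vault, with a log2 difference of 2.70 (SE 0.41, limma, adjusted p = 0.0160) and of 3.19 (adjusted p = 0.00128) without base replicate 2. In the MCAGF8 vault it was 12.7-fold lower than in the base (-2.89, SE 0.41, limma, adjusted p = 0.00763), with a log2 difference of -3.38 without base replicate 2. Its difference between the vaults was -0.19 with a 95% interval of -1.12 to 0.73 (limma, adjusted p = 0.983). Surface epidermis markers summed to 159 to 898 FPKM in the base, neuron and brain markers (9 of 10 genes found) to 409.6 to 1371 in the base and 124 to 202 in the control vault, and pituitary markers (8 genes) to 11.4 to 28.2 and 2.65 to 7.82. Of the pituitary genes, Pou1f1 and Six6 were at 0 in every control vault library and in base replicate 3. In each of these lists the base lay above the control vault in every library, as Aldh1a1 did. The MCAGF8 vault lay below the base in the neuron and pituitary lists (164 to 212 and 2.36 to 2.42 FPKM). In the epidermis list the sum of the MCAGF8 vault was 416 to 749 FPKM, within the range of the base. Its genes went both ways, with 7 of 12 higher and 5 lower than in the base, and 0 and 3 of them called (limma). Krt5 was at 39.2, 17.8 and 117 FPKM in the base, below each MCAGF8 value given above. Krt8 (chosen after its values were seen) was at 54.8, 16.1 and 71.5 FPKM in the base and 1.75, 2.94 and 2.22 in the MCAGF8 vault. The part of these lists in the level of Aldh1a1 was not tested.

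Taken as shares of the summed FPKM of the 3 Aldh1a genes, Aldh1a2 was higher in each MCAGF8 library than in each control library, as a description with no test. Aldh1a2 made up 67.4, 60.3 and 67.2% in the control vault, 86.1, 81.3 and 71.1% in the MCAGF8 vault and 52.1, 27.9 and 62.4% in the base. Aldh1a3 made up 29.3, 36.1 and 28.4% in the control vault and 7.34, 12.6 and 20.9% in the MCAGF8 vault. The base was split, since Aldh1a3 held 60.8% in replicate 2 and 21.9 and 16.2% in replicates 1 and 3.

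Of the degrading enzymes, Cyp26a1 (ENSMUSG00000024987, chromosome 19 from 37697798 to 37701536), whose promoter is shown above, was the one with a tissue difference that passed the test. It was at 9.12, 8.80 and 8.11 FPKM in the base, 1.75, 2.86 and 2.21 in the control vault and 1.13, 2.33 and 1.93 in the MCAGF8 vault. The base libraries were close to each other, replicate 2 included, and lay above all 6 vault libraries, while the vaults overlapped. The base mean was 3.82-fold that of the control vault (1.58 on the log2 scale, SE 0.24, limma, adjusted p = 0.0160). Relative to the base, the MCAGF8 vault was 4.83-fold lower (-1.81, SE 0.24, limma, adjusted p = 0.00584), and without base replicate 2 the adjusted p of these comparisons was 0.0195 and 0.00615. The vaults differed by -0.24 (95% interval -0.78 to 0.30, limma, adjusted p = 0.969). The summed neuron, epidermis and pituitary markers named with Aldh1a1 also separated the base from the control vault. The summed epidermis markers overlapped between the base and the MCAGF8 vault. Within that list, 3 of the 12 genes were called lower and 0 higher in the MCAGF8 vault than in the base (limma). The part of these markers was not tested here either.

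Cyp26b1 (ENSMUSG00000063415, chromosome 6 from 84571414 to 84593908), which clears retinoic acid in developing limb and skeletal tissue, was the more abundant of the Cyp26 pair in each library. The control vault was at 15.0, 12.6 and 15.0 FPKM, the MCAGF8 vault at 22.4, 24.8 and 17.1 and the base at 9.54, 17.1 and 15.8. The MCAGF8 libraries were above all control vault libraries, and the lowest of them was level with base replicate 2 to the digits printed, but no difference was called. It was 0.55 between the vaults (95% interval -0.0000015 to 1.10, limma, adjusted p = 0.786) and 0.59 against the base (95% interval 0.042 to 1.14, adjusted p = 0.223), where it was called without base replicate 2 (0.74, adjusted p = 0.0846). The control tissues differed by -0.042 (95% interval -0.59 to 0.51, limma, adjusted p = 0.989). Chondrocyte markers summed to 1678 to 3263 FPKM in the MCAGF8 vault and 1246 to 1855 in the control vault, and their part in the level of Cyp26b1 was not tested.

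Set side by side, the summed FPKM of the 3 Aldh1a genes was 57.8, 34.6 and 65.6 in the control vault, 24.3, 33.2 and 14.54 in the MCAGF8 vault and 87.5, 76.2 and 137 in the base. The summed FPKM of Cyp26a1 and Cyp26b1 was 16.7, 15.5 and 17.2, 23.6, 27.1 and 19.1 and 18.7, 25.9 and 23.9 in the same groups. The MCAGF8 vault thus had the lowest sums of synthesis, below all control libraries, and sums of degradation above the control vault. The ratio of the sums was 3.46, 2.23 and 3.80 in the control vault, 1.03, 1.22 and 0.763 in the MCAGF8 vault and 4.69, 2.95 and 5.75 in the base. These sums are over genes picked by name and are given as a description, with no test, and mRNA levels do not measure enzyme activity or retinoic acid itself.

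**Figure D3:**
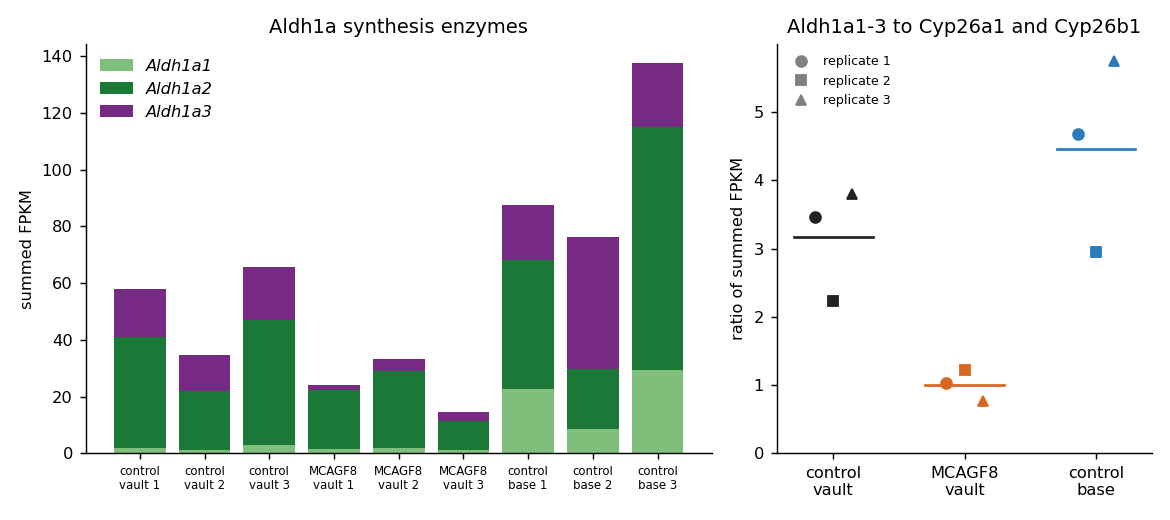
Left, stacked bars of the FPKM of Aldh1a1, Aldh1a2 and Aldh1a3 in each library. Right, the ratio of the summed FPKM of the 3 Aldh1a genes to that of Cyp26a1 and Cyp26b1, with 1 symbol for each library and a line at the group mean, where the MCAGF8 vault lies between 0.763 and 1.22 and each control library is at 2.23 or above.

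Crabp1 (ENSMUSG00000032291, chromosome 9 from 54764748 to 54773110), a cytoplasmic protein that holds retinoic acid and a common marker of dermal and neural crest mesenchyme, was the most abundant member and was highest in the MCAGF8 vault. Its values were 345, 296 and 569 FPKM in the control vault, 775, 1184 and 638 in the MCAGF8 vault and 436, 149.6 and 420.4 in the base. The MCAGF8 libraries lay above all 6 control libraries, and base replicate 2 was the lowest. Between the vaults the means differed 2.15-fold, a log2 difference of 1.11 that was not called (95% interval 0.11 to 2.11, limma, adjusted p = 0.682). Against the base the difference was 1.47 (95% interval 0.47 to 2.47, limma, adjusted p = 0.103), and it was called without base replicate 2, at 0.96 (adjusted p = 0.0876). The base differed from the control vault by -0.36 (95% interval -1.36 to 0.64, limma, adjusted p = 0.888), and by 0.15 without base replicate 2. Dermis markers (6 genes, Crabp1 left out) summed to 3901 to 4706 FPKM in the control vault, 4414 to 5018 in the MCAGF8 vault and 1735 to 2382 in the base. Within this list, 3 of the 6 genes were higher in the MCAGF8 vault than in the control vault without overlap and 0 were called (limma, 2 at an unadjusted p under 0.05). By direction, 4 of the 6 had a difference above 0 and 2 below it, Dpt (-0.38) and Dcn (-0.29). Twist2 and Lef1, transcription factors of dermal mesenchyme (chosen after their values were seen), had log2 differences of 1.62 and 1.63 (adjusted p = 0.110 and 0.238), with Twist2 at 28.8, 39.6 and 36.5 FPKM in the control vault and 97.4, 120.4 and 109 in the MCAGF8 vault. The study names Twist2 as an inhibitor of osteoblast differentiation and Lef1 as a gene of canonical Wnt signaling. The part of the dermis markers in the level of Crabp1 was not tested.

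Crabp2 (ENSMUSG00000004885, chromosome 3 from 87948666 to 87953376), which hands retinoic acid to its nuclear receptors, had no group that lay apart from the others. It was at 243, 278 and 349 FPKM in the control vault, 218, 282 and 150.0 in the MCAGF8 vault and 344, 110.0 and 275 in the base. Base replicate 2 was again the lowest of the base. Its log2 differences were -0.45 between the vaults (95% interval -1.37 to 0.46), -0.057 between the MCAGF8 vault and the base (-0.97 to 0.86) and -0.39 between the control tissues (-1.31 to 0.52), with limma's adjusted p at 0.969, 0.962 and 0.843. Without base replicate 2 the 2nd and 3rd of these were -0.55 and 0.098. The ratio of Crabp1 to Crabp2 within a library was 1.42, 1.06 and 1.63 in the control vault, 3.55, 4.20 and 4.25 in the MCAGF8 vault and 1.27, 1.36 and 1.53 in the base. The ratio was steady over the base libraries, whose levels of both genes varied, and every MCAGF8 library was above every control library, as a description with no test.

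Of the receptors, Rarg (ENSMUSG00000001288, chromosome 15 from 102234938 to 102257517), the retinoic acid receptor known for its expression in cartilage and skin, was the more abundant. It was at 138, 118 and 153 FPKM in the control vault, 151, 211 and 143 in the MCAGF8 vault and 88.5, 114 and 109 in the base. The base lay below both vaults in every library, and the vaults overlapped. The MCAGF8 mean was 1.63-fold that of the base, with a log2 difference of 0.68 (SE 0.21, limma, adjusted p = 0.0994), just inside the threshold. That call was lost in 16 of 21 other settings, with adjusted p from 0.0480 to 0.377, and it was lost on leaving out any 1 library other than base replicate 2, with adjusted p from 0.139 to 0.255 over those 8 libraries. Without base replicate 2 it was 0.75 (adjusted p = 0.0480). The vaults differed by 0.29 (95% interval -0.17 to 0.75, limma, adjusted p = 0.969) and the control tissues by -0.39 (95% interval -0.85 to 0.071, adjusted p = 0.505).

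Rarb (ENSMUSG00000017491, chromosome 14 from 16430839 to 16819156), the receptor gene with the element shown above, differed least between the vaults. It was at 25.6, 23.4 and 27.2 FPKM in the control vault, 32.3, 26.4 and 19.9 in the MCAGF8 vault and 17.3, 25.6 and 20.3 in the base. All groups overlapped. The log2 difference between the vaults was 0.021, with a 95% interval of -0.47 to 0.51 that holds neither a doubling nor a halving (limma, adjusted p = 1.00). It was 0.29 against the base (95% interval -0.20 to 0.78, limma, adjusted p = 0.507) and -0.27 between the control tissues (95% interval -0.76 to 0.22, adjusted p = 0.757). The members with the element thus had different profiles, since Cyp26a1 separated the base from both vaults and Rarb did not.

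The rest of the pathway was read from 6 lists of 55 genes, of which 42 were tested. Between the vaults 0 of the 42 passed as higher and 1 as lower in the mutant tissue (limma), the median log2 difference was 0.0058, and 5 had an unadjusted p under 0.05. Over all genes 0.604% were called (0.230% higher and 0.374% lower), the median was -0.0088 and 6.34% had an unadjusted p under 0.05. The 1 gene called among the 42 was Rxrg, a retinoid X receptor, the partner class of the Rar proteins, at 4.50, 7.05 and 4.60 FPKM in the control vault, 0.882, 0.861 and 1.02 in the MCAGF8 vault and 12.5, 7.997 and 10.9 in the base. Each MCAGF8 value was below each control value, and the log2 difference was -1.71 (SE 0.24, limma, adjusted p = 0.0374), with a call lost in 7 of 21 other settings (adjusted p from 0.0181 to 0.223), among them those without control vault replicate 1 or 3 (0.163 and 0.170) and without MCAGF8 replicate 1, 2 or 3 (0.223, 0.159 and 0.118). Skeletal muscle, osteoblast and epidermis markers differed between these groups as given above, and their part in the level of Rxrg was not tested.

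Relative to the base, the MCAGF8 vault had 2 of the 42 called higher and 3 called lower, and the median of the 42 was -0.053, where 8.39% of all genes were called (2.98% higher and 5.41% lower) with a median of -0.066. Higher were Adh1 (2.00, SE 0.44, limma, adjusted p = 0.0329) and Adh7 (1.48, SE 0.34, adjusted p = 0.0403), alcohol dehydrogenases that can oxidize retinol. Adh1 was at 29.2, 27.3 and 18.9 FPKM in the MCAGF8 vault, 16.9, 24.9 and 28.2 in the control vault and 9.94, 1.95 and 7.16 in the base, where replicate 2 was the lowest. Lower were Rxrg (-2.56, limma, adjusted p = 0.00173), Cyp1b1 (-1.82, adjusted p = 0.0108), a cytochrome that can make retinoic acid by a route of its own, and Rbp7 (-1.68, adjusted p = 0.0811), a retinol-binding protein. Rbp7 was at 8.38, 1.28 and 4.03 FPKM in the base and 0, 1.09 and 0.559 in the MCAGF8 vault, and its call was lost in 15 of the 20 settings that gave it a value. Without base replicate 2 the adjusted p was 0.0148 for Adh1, 0.0479 for Adh7, 0.000759 for Rxrg, 0.0136 for Cyp1b1 and 0.00944 for Rbp7.

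Between the control tissues, 3 of the 42 were called higher and 1 lower in the base, with a median of -0.015, where 3.06% of all genes were called (1.85% higher and 1.21% lower) with a median of 0.067. Higher were Rdh10 (0.69, SE 0.17, limma, adjusted p = 0.0939), the main retinol dehydrogenase of the embryo, Cyp1b1 (1.50, SE 0.29, adjusted p = 0.0450) and Meis1 (1.29, SE 0.31, adjusted p = 0.0807), a homeobox gene that responds to retinoic acid. The call of Rdh10 was lost in 13, that of Meis1 in 14 and that of Cyp1b1 in 6 of 21 other settings. Adh1 was lower in the base (-1.89, SE 0.44, limma, adjusted p = 0.0766), a call lost in 12. Without base replicate 2 the adjusted p was 0.0995 for Rdh10, 0.0571 for Cyp1b1, 0.0554 for Meis1 and 0.0411 for Adh1.

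Rdh10, which supplies the retinal that the Aldh1a enzymes use, was at 11.0, 11.7 and 12.5 FPKM in the control vault, 17.6, 21.1 and 16.1 in the MCAGF8 vault and 18.8, 20.6 and 19.2 in the base. Both other groups lay wholly above the control vault, but the difference between the vaults (0.59, 95% interval 0.21 to 0.98, limma, adjusted p = 0.332) was not called. Meis1 stood in the same order, at 9.37, 18.4 and 8.31 FPKM in the control vault, 22.0, 26.7 and 36.0 in the MCAGF8 vault and 34.0, 23.6 and 30.5 in the base, and its difference between the vaults was 1.22 (95% interval 0.53 to 1.90, limma, adjusted p = 0.215).

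Of the genes with the highest level in a list, Adh5, Fabp5, Ncor1 and Nr2f1 were called in no comparison. Adh5, a widely expressed alcohol dehydrogenase, was at 138 ± 23.1, 111 ± 18.4 and 164 ± 60.0 FPKM (SD, n = 3) in the control vault, the MCAGF8 vault and the base. Fabp5, a fatty acid-binding protein that can carry retinoic acid to another receptor, was at 158 ± 37.7, 120.4 ± 24.5 and 245 ± 129 in the same order. The corepressor Ncor1 was at 101 ± 16.7, 119 ± 22.9 and 91.4 ± 35.8, and Nr2f1, a responsive orphan receptor, at 51.1 ± 3.73, 46.1 ± 7.26 and 67.9 ± 13.5. The list of 13 responsive genes, of which 10 were tested, was called in no gene between the vaults, with 5 genes higher, 5 lower and 2 at an unadjusted p under 0.05. Without overlap between the vaults, 1 of them was higher in the MCAGF8 vault, Meis1 (given above), and 1 lower, Rarres2 (chosen after its values were seen). Over all genes these shares were 9.90% and 9.35%. For Rarres2 the values were 34.9, 57.3 and 55.1 FPKM in the control and 18.0, 17.8 and 19.4 in the MCAGF8 vault (-1.34, 95% interval -2.53 to -0.14, limma, adjusted p = 0.668). Rarres2 was at 83.3, 12.7 and 36.8 FPKM in the base, and that spread enters the pooled error of this interval.

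**Figure D4:**
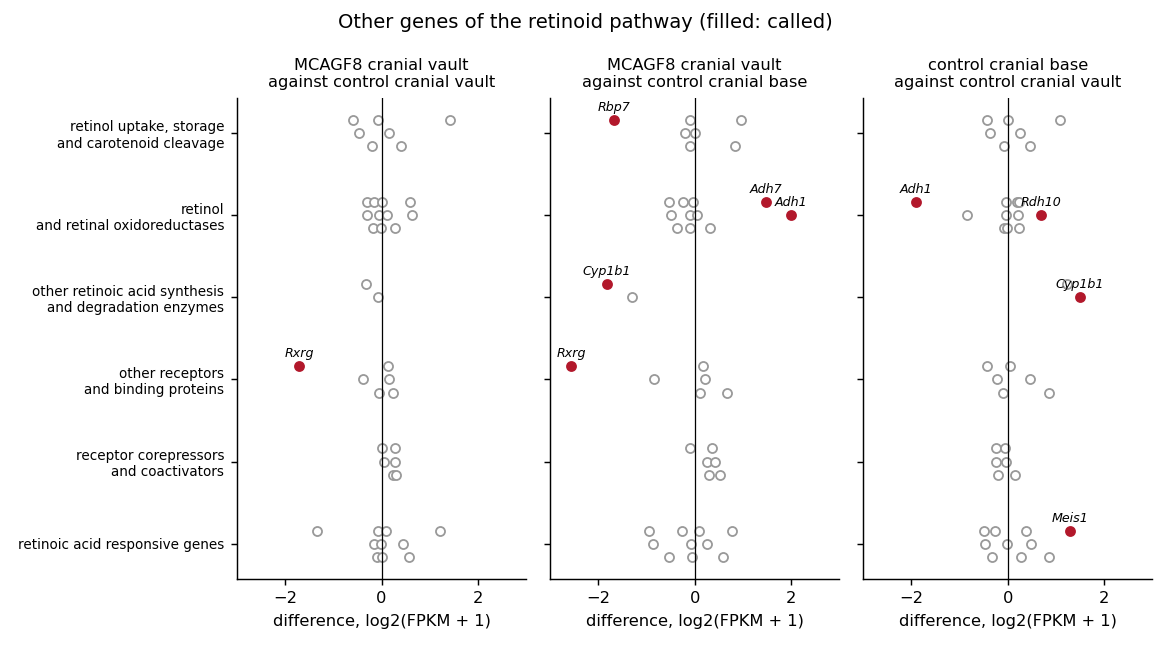
Differences of log2(FPKM + 1) for the tested genes of the 6 pathway lists in the 3 comparisons (1 panel each), with 1 row of points for each list and called genes filled and named. In the panel of the vaults Rxrg, at -1.71, is the 1 filled point.

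The genes whose log2(FPKM + 1) ran most like a member's over the 9 libraries were looked up, where only genes of mean FPKM 5 or more were searched. The points share group and tissue makeup, so these values are a description. Aldh1a3 ran most like Ihh, Pcolce2 and Ebf2 (Pearson's r 0.974, 0.967 and 0.955), of which Ihh encodes the hedgehog ligand of growing bone and cartilage, Pcolce2 an enhancer of collagen processing and Ebf2 a transcription factor. Aldh1a1 was nearest to Sim2, Msmo1 and Foxf2 (Pearson's r 0.991, 0.984 and 0.981), where Sim2 and Foxf2 are transcription factors and Msmo1 is an enzyme of sterol synthesis. For Cyp26a1 the nearest were Rbmx2, Jam2 and Asb4 (Pearson's r 0.983, 0.971 and 0.962), and for Rarg they were Mmp2, Tbkbp1 and Sulf2 (Pearson's r 0.986, 0.974 and 0.972), with Mmp2 a matrix metalloproteinase and Sulf2 a sulfatase of heparan sulfate. Without base replicate 2, r of these 12 genes lay between 0.945 and 0.992.

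For Crabp1 the nearest genes were Fam181b, Wdr86 and Glns-ps1 (Pearson's r 0.973, 0.964 and 0.950), and for Crabp2 they were Sdhc, Gucd1 and Tmem219 (Pearson's r 0.986, 0.981 and 0.980), with Sdhc a subunit of succinate dehydrogenase. Aldh1a2 ran most like Tmem53, Tsc22d3 and Gm12892 (Pearson's r 0.966, 0.954 and 0.951), Cyp26b1 most like Gm13123, Aff3 and Rab11fip3 (Pearson's r 0.970, 0.967 and 0.967) and Rarb most like Tmc4, Cybrd1 and Gm14230 (Pearson's r 0.925, 0.896 and 0.890). No member was among the 3 nearest genes of another. Between members, the highest r was 0.903 for Aldh1a1 with Cyp26a1, both high in the base, and the lowest was -0.803 for Aldh1a3 with Crabp1. Rarb and Cyp26a1, the genes with the element, had an r of -0.617.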

How the data were processed

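Per the labels and the study's methods, stranded mRNA libraries were sequenced single-end, and the authors used gSNAP for mapping and Cufflinks, also named in the submitters' processing notes, for expression values. The deposited values are FPKM in 1 table. Tool versions, build and annotation: not given in the sources used here. In the table were 43611 rows for 43548 Ensembl identifiers, and the 63 repeated rows were summed. In 9 genes, none of them a member, 17 cells held the placeholder 999999999, and these genes were left out. Symbols were matched for 42384 identifiers.

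FPKM were put on the scale log2(FPKM + 1), which understates changes of low genes, and limma 3.58.1 (R 4.3.3) was fitted to the 18714 genes whose mean FPKM was 0.5 or more (1 mean per group, 9 libraries, eBayes with trend, tested on simulated data first). Called genes had a raw p under 0.05 and an adjusted p (Benjamini-Hochberg, all genes tested) under 0.1. Fold values are ratios of mean FPKM. Tables were made with Python 3.11.15 and pandas 2.3.3, and plots with matplotlib 3.10.9.

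Named genes were the 9 members, pathway genes called in any comparison, the most abundant gene of each pathway list, and the 3 genes most correlated with each member, and some genes are not reported here. Members and lists were chosen with earlier results of these data known. The alternatives were another pseudocount, other filters, 2 normalizations, fits to 6 libraries, the replicate number as a block, an unmoderated linear model, other thresholds, the highest repeated row, each library left out, and, added after the data were seen, base replicate 2 as the 1 base library. Same-numbered libraries of different groups had correlations of -0.549 to 0.370, so the numbers were not taken as pairs. Gene coordinates were taken from GENCODE M21 (GRCm38) by Ensembl identifier, and promoter sequences from RefSeq (GRCm38.p6).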

Additional observations from a re-analysis of the deposited data

How the results depend on the processing

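Between the vaults, the number of members called was 1, and it was 0 with no filter on low values, after rescaling each library to a sum of 1000000, with the replicate block, with the linear model without moderation and at an adjusted p under 0.05, and 2 at an unadjusted p under 0.05 alone. The model without moderation called 0 of all genes there, with 1223 at an unadjusted p under 0.05, against 1186 by limma. Between the MCAGF8 vault and the base, the number was 2 with a mean FPKM of at least 5, and 7 at an unadjusted p under 0.05 alone. The filter at 5 leaves out Cyp26a1, and Rarg lost its call there. Between the control tissues it was 1 with a mean FPKM of at least 5 and 1 in the fit to only 6 libraries. Leaving out 1 library at a time gave 0 to 1, 3 to 7 and 2 to 2 members called in these comparisons, while the genes called over the whole table ran from 11 to 231, 559 to 4580 and 132 to 1322. Same-numbered libraries are not shown to be pairs, and with the replicate block the members called were 0, 3 and 2, and all genes called were 19, 918 and 234, against 113, 1571 and 573. Rescaling to a common sum moved the median log2 difference of all genes from -0.0088 to 0.13 between the vaults and from -0.066 to 0.11 against the base.

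Under quantile normalization, the sign of the log2 difference turned for Crabp2 (0.18) between the MCAGF8 vault and the base. After rescaling to a sum of 1000000, the sign of the log2 difference turned for Nr2f1 (0.014) between the vaults, and Crabp2 (0.16), Meis1 (0.14) and Rdh10 (0.11) between the MCAGF8 vault and the base. With base replicate 2 as the 1 base library, the sign of the log2 difference turned for Adh5 (0.18), Crabp2 (0.93), Fabp5 (0.29), Meis1 (0.22) and Ncor1 (-0.16) between the MCAGF8 vault and the base, and Adh5 (-0.49), Aldh1a2 (-0.61), Cyp26b1 (0.25), Fabp5 (-0.67), Ncor1 (0.38) and Rarb (0.013) between the control tissues. With 1 library left out at a time, the differences that turned their sign in at least 1 case ran over these ranges: Adh1 from -0.098 to 0.29, Aldh1a1 from -0.39 to 0.0069 and Rarb from -0.14 to 0.20 between the vaults, and Crabp2 from -0.55 to 0.27 and Meis1 from -0.25 to 0.092 between the MCAGF8 vault and the base, and Adh5 from -0.033 to 0.53, Aldh1a2 from -0.081 to 0.90, Crabp1 from -0.62 to 0.15, Crabp2 from -0.72 to 0.098, Cyp26b1 from -0.19 to 0.20 and Ncor1 from -0.49 to 0.051 between the control tissues. None of these differences was called in the setting reported above. The cause of these changes was not tested. With base replicate 2 as the 1 base library, that library was assumed to vary like the other groups. Depth is unknown, so the limits of low values such as Aldh1a1 and Cyp26a1 in the vaults cannot be given in reads.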

Other observations

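Cyp26c1, the remaining retinoic acid hydroxylase, chosen after its values were seen, had values of 0.0745, 2.20 and 3.56 FPKM in base replicates 1, 2 and 3, of 0.227, 0 and 0 in the control vault and of 0, 0.0728 and 0 in the MCAGF8 vault, and its log2 difference between the MCAGF8 vault and the base was -1.29 (95% interval -2.29 to -0.29, limma, adjusted p = 0.148). Base replicates 2 and 3 were above the rest, and replicate 1 was not.

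Oc90, a protein of the otoconia of the inner ear, accounted for 753 FPKM of the inner ear sum in base replicate 2 and stood at 5.25 and 4.15 in replicates 1 and 3. The chondrocyte sum was also highest in replicate 2, at 7188 FPKM against 742 and 922. Aldh1a3 was at 46.3 FPKM in replicate 2 against 19.2 and 22.2. The part of the inner ear and chondrocyte markers in this level of Aldh1a3 was not tested.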
